A study of Homo sapiens with 4 samples.

Results

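The transcripts described here are those of 10 genes of the YAP and contractile programme, found by their symbols among the 57773 genes of each expression table, all 10 of them present. They are the coactivator genes YAP1 and WWTR1 (the gene of TAZ), the described YAP and TAZ targets CTGF, CYR61, ANKRD1, AMOTL2 and LATS2, and the contractile genes ACTA2, TAGLN and CNN1. The 4 RNA libraries come from A2780, a human cell line labelled as ovarian adenocarcinoma and wild type. The vehicle group received DMSO (libraries 1 and 2, no dose or time given for it), and the treated group received the plant flavone wogonin at 10 ug/mL for 48 h (libraries 3 and 4). The title of the series names an axis of AMPK, TET2 and DNA hydroxymethylation, none of which is measured by transcript levels of these genes.

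YAP1 and TAZ are transcriptional coactivators that carry no DNA-binding domain of their own and reach promoters through the TEAD factors. The Hippo kinases phosphorylate them and keep them in the cytoplasm, and cell spreading and actin tension favour their entry into the nucleus, so their activity is set largely after transcription. AMOTL2 and LATS2 are targets that also restrain YAP, and form a feedback loop. ACTA2, TAGLN and CNN1 belong to the smooth muscle contractile set that serum response factor (SRF) and its MRTF coactivators drive when monomeric actin runs low.

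Each library held between 11005921 and 11839562 exon reads, and 3 reads, the floor used here, were worth 0.253 to 0.273 CPM (exon reads relative to the TMM-scaled library size). The share of gene reads lying in introns was 7.96% in wogonin 3 (Wilson 95% interval 7.95 to 7.98%, counting error only) against 5.26 to 5.61% elsewhere. Mitochondrial genes took 3.03% of exon reads in wogonin 4 and 1.45 to 1.67% in the others. Of 14 epithelial and ovarian carcinoma markers, 12 stayed under 1 CPM in every library, EPCAM, KRT8, KRT18, CDH1, PAX8 and MUC16 among them, so these defining markers of the labelled cell type were at or near 0, and MUC1 and CLDN4 exceeded 1 CPM in at least 1 library. Of 8 blood and endothelial markers in the files, 6 had no read in any library. CD68 had 15.2 to 21.1 CPM (19.4% of its reads uniquely placed), and LYZ had at most 7 reads in a library. The summed level of 9 fibroblast markers was 755 to 814 CPM in DMSO and 665 to 677 CPM in wogonin, and most of it was COL3A1, which fell by 0.29 log2 units (edgeR adjusted p = 2.9e-04). Of the 5 fibroblast markers tested COL1A1 also fell, by 0.67, while THY1 rose by 0.81 log2 units (edgeR adjusted p = 6.5e-07, 15.3% of its reads uniquely placed) and DCN and LUM did not pass.

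TEAD factors bind the letters GGAATG, or CATTCC on the other strand, and the upstream promoter sequences of 4 members that hold these letters are shown because these members moved or were described as direct targets. The 250 bases before the start come from RefSeq (build GRCh38.p14, not the build of the expression files), read 5′ to 3′ along the gene, and capitals mark each match. Windows were found for 8 of the 10 genes, 11 windows in all.
CTGF (CCN2 in RefSeq), chr6:131951373-131951622, minus strand: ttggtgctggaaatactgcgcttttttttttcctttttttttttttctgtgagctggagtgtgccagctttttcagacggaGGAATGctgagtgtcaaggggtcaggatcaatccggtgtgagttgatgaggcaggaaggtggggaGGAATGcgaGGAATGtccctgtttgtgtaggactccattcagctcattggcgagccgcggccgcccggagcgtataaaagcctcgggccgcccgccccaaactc
ANKRD1, chr10:90921088-90921337, minus strand: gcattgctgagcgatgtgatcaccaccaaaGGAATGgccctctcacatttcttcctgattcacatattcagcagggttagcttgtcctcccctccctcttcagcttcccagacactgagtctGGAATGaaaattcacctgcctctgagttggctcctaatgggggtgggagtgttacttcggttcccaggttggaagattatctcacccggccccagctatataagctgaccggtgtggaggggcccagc
AMOTL2, downstream start, chr3:134374448-134374697, minus strand: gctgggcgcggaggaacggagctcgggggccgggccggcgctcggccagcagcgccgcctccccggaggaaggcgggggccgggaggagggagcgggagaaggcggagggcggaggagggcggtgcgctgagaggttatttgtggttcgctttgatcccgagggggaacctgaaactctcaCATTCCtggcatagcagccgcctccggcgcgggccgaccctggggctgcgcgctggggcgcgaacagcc
ACTA2, downstream start, chr10:88952774-88953023, minus strand: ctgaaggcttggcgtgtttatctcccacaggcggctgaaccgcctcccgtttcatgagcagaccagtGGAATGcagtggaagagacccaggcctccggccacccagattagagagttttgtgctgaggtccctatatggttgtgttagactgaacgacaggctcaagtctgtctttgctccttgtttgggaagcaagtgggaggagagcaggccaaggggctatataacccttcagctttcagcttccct
The CTGF window held 3 matches, which begin 169, 104 and 95 bases before the start. ANKRD1 held 2, at 220 and 128 bases. AMOTL2 held 1 at 69 bases before its downstream start, ACTA2 held 1 at 183 bases before its downstream start, and YAP1 itself held 1 at 162 bases. Of all 35116 windows of this length, 11.9% held at least 1 match and 0.94% held 2 or more. The windows of LATS2, CNN1 and WWTR1 and the upstream starts of AMOTL2 and ACTA2 held none. The CArG box, the site of SRF, was searched as 2 C, then 6 letters each A or T, then 2 G, a pattern that reads the same on both strands. Without a mismatch it occurred in 1.16% of all windows and in none of these 11. With 1 mismatch allowed, a search added after the strict one was seen, it occurred in 16.8% of all windows, and 2.89% held 2 or more. The downstream ACTA2 start then held 2, beginning 121 and 71 bases before it, the upstream WWTR1 start held 1 at 73 bases, and the other 9 windows held none. A match is a description of letters and not a measured binding site, and no match says only that the letters are not in that window.

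Levels fell for the targets CYR61 and AMOTL2 by 0.76 and 0.87 log2 units, and the contractile gene ACTA2 rose by 0.93. The coactivator genes lay nearer to 0, YAP1 at -0.07 and WWTR1 at 0.20. All 10 genes passed the filter on low counts, and at an edgeR quasi-likelihood adjusted p under 0.05 over all genes 4 of them were lower after wogonin (CYR61, AMOTL2, LATS2 and CNN1), 2 were higher (ACTA2 and WWTR1) and 4 did not pass. The members called were 60% of the 10, against 63.8% of the 13449 genes tested (32.3% higher and 31.5% lower). The count itself is thus near the background. The median log2 fold change was -0.43 over the 10 genes and -0.00066 over all genes tested. With a change of at least 1 log2 unit as well, 1 member was lower (CNN1) and none higher, beside 9.94% and 6.31% of all genes. CNN1 passed the filter through its DMSO libraries alone, so its place in both counts rests on the group where it was higher. Scaling by library totals alone, with the threshold on adjusted p only, gave 6 members lower (YAP1 and CTGF too) and 1 higher. Upper-quartile scaling gave the same counts. Over all genes tested 3657 were then higher and 4974 lower with library totals, and 3663 and 4976 with upper-quartile scaling.

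**Figure D1:**
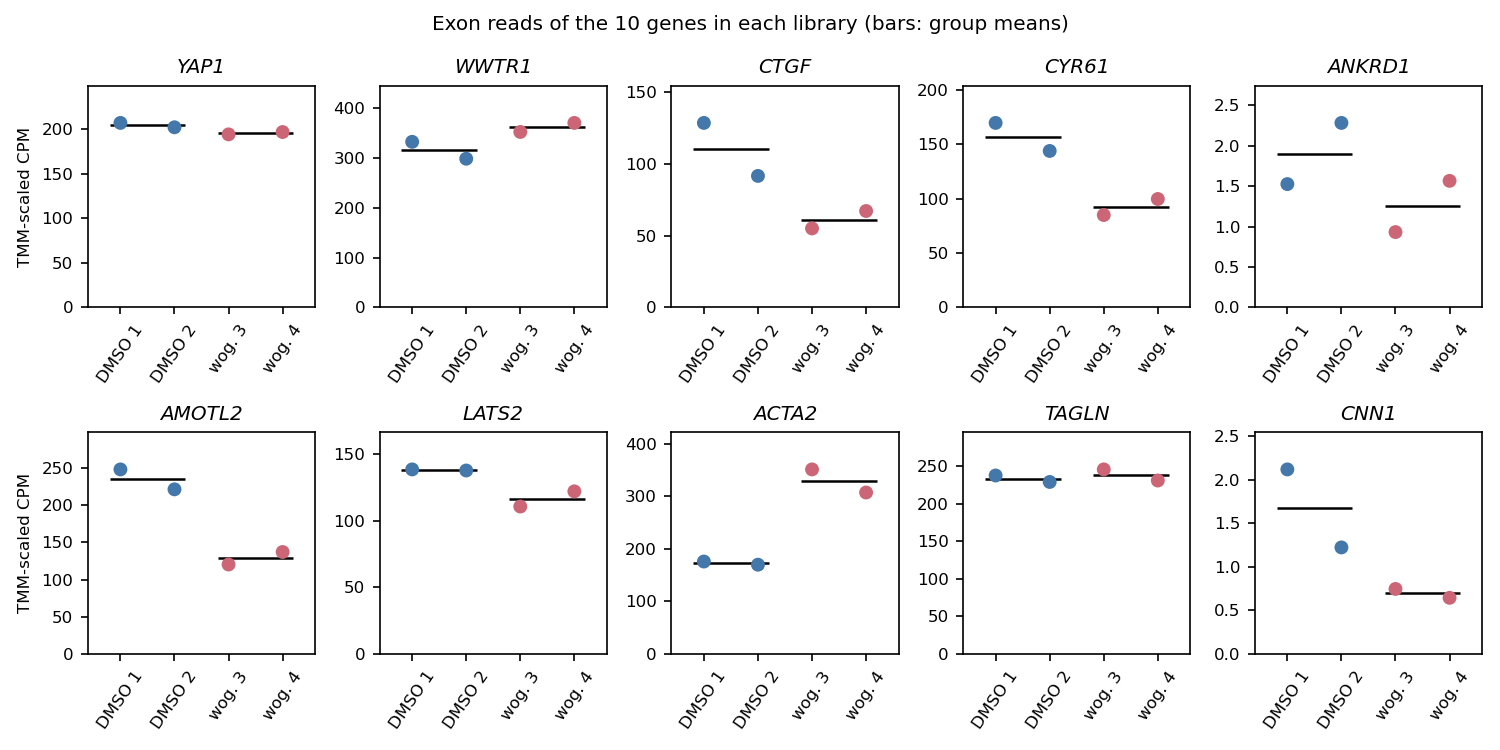
Exon reads of each of the 10 genes as TMM-scaled CPM (vertical axes from 0, each gene on its own scale) in DMSO 1 and 2 (blue) and wogonin 3 and 4 (red, "wog."), with bars at the group means. CYR61 and AMOTL2 lie lower in both treated libraries, ACTA2 lies higher in both (352 and 308 CPM against 176 and 170), and the TAGLN groups overlap.

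YAP1 (ENSG00000137693, chromosome 11, 101981192 to 102104154, plus strand; hg19, as are all gene coordinates here) stood at 207 and 202 CPM in DMSO and at 194 and 197 CPM in wogonin. The 2 treated libraries were the lower ones, by a small margin. The log2 fold change was -0.07 ± 0.06 (SE, 95% interval -0.19 to 0.06, edgeR adjusted p = 0.33). Under 2 other scalings, by library totals alone and by the upper quartile, which move the median of all genes to -0.09, the value was -0.16 and passed (edgeR adjusted p = 0.026 and 0.025).

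WWTR1, which encodes TAZ (ENSG00000018408, chromosome 3, 149235022 to 149454501, minus strand), read 333 and 299 CPM in DMSO and 352 and 371 CPM in wogonin. Both treated libraries were above both controls, and the gap was smaller than that between the 2 controls. The log2 fold change was 0.20 ± 0.06 (SE, edgeR adjusted p = 0.011). This call was lost in 6 of 16 alternatives, among them both of those scalings (value 0.10, edgeR adjusted p = 0.15 and 0.14), exon-exon reads (0.10, edgeR adjusted p = 0.25) and the fit without DMSO 2 (0.11, edgeR adjusted p = 0.21).

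Among the secreted matricellular targets, CYR61 (ENSG00000142871, chromosome 1, 86046444 to 86049645, plus strand), an integrin ligand of the CCN family, gave 169 and 144 CPM in DMSO and 84.8 and 99.6 CPM in wogonin. The groups did not overlap, and the treated libraries differed from each other by less than they did from either control. CYR61 fell by 0.76 ± 0.10 log2 units (SE, adjusted p = 5.1e-05 by edgeR), to 0.59 of the DMSO level. The fall passed in all 16 alternatives, between -0.89 and -0.65. All of its exon reads were uniquely placed.

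CTGF, its CCN family relative and the most used readout of YAP activity (ENSG00000118523, chromosome 6, 132269316 to 132272513, minus strand), had 1518 and 1125 exon reads in DMSO and 591 and 730 in wogonin. In CPM these were 129 and 91.8 against 55.2 and 67.3. The groups did not overlap, but the DMSO libraries lay further apart for CTGF than for CYR61. The log2 fold change was -0.85 ± 0.25 (SE, 95% interval -1.64 to -0.05) and did not pass (edgeR adjusted p = 0.065). The same value had an edgeR adjusted p of 2.3e-04 in the non-robust fit, which gives every gene the same prior weight on the shared spread, and DESeq2 gave an adjusted p of 0.0053. Of 16 alternatives 12 passed, and the adjusted p ranged from 8.0e-05 to 0.26, the highest without wogonin 3 (value -0.70).

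ANKRD1, a nuclear ankyrin repeat protein of muscle and a YAP target in many cell types (ENSG00000148677, chromosome 10, 92671853 to 92681033, minus strand), was close to the limit of detection. It had 18 and 28 exon reads in DMSO and 10 and 17 in wogonin, which is 1.53 and 2.28 against 0.93 and 1.57 CPM. The groups overlapped. The log2 fold change was -0.61 ± 0.41 (SE, 95% interval -1.47 to 0.26, edgeR adjusted p = 0.20), an interval that holds changes of either sign.

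The 2 targets that restrain YAP both fell. AMOTL2, an angiomotin that binds YAP at junctions (ENSG00000114019, chromosome 3, 134074716 to 134094321, minus strand), went from 248 and 221 CPM in DMSO to 120 and 137 CPM in wogonin. No treated library came near a control. AMOTL2 fell by 0.87 ± 0.08 log2 units (SE, adjusted p = 2.2e-07 by edgeR), and 1748 of the 13449 genes tested had a lower value. It passed in all 16 alternatives (-0.97 to -0.77).

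LATS2, a kinase that phosphorylates YAP and TAZ (ENSG00000150457, chromosome 13, 21547171 to 21635686, minus strand), was at 138 and 138 CPM in DMSO and 111 and 122 CPM in wogonin. Both treated libraries were lower, and the controls were almost equal. LATS2 fell by 0.25 ± 0.07 log2 units (SE, adjusted p = 0.0043 by edgeR). The call was lost without wogonin 3 (value -0.17, edgeR adjusted p = 0.066) and in exon-exon reads (-0.20, edgeR adjusted p = 0.13).

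Of the contractile genes, ACTA2, the smooth muscle alpha actin (ENSG00000107796, chromosome 10, 90694831 to 90751147, minus strand), rose. Its exon reads numbered 2076 and 2085 in DMSO and 3767 and 3336 in wogonin, or 176 and 170 against 352 and 308 CPM. The controls were nearly equal and both treated libraries were far above them. The log2 fold change was 0.93 ± 0.07 (SE, edgeR adjusted p = 1.0e-08), a level 1.90 times that of DMSO, and 1028 of the 13449 genes tested had a higher value. The rise passed in all 16 alternatives, between 0.84 and 1.02.

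Reads of ACTA2 can be shared with other actins and with its neighbours. Over the 4 libraries 69.3% of its exon reads were uniquely placed, and in those reads alone the log2 fold change was 0.92 (edgeR adjusted p = 3.7e-11). On the opposite strand its 5′ end overlaps FAS (90750414 to 90775542), which rose by a log2 value of 0.74, and its body overlaps STAMBPL1, which fell by 0.58. The strand setting of the counts is not given in the sources used here. Exon-exon reads, which cross a splice junction, numbered for ACTA2 1467, 1439, 2598 and 2349 reads in DMSO 1, DMSO 2, wogonin 3 and wogonin 4, a log2 fold change of 0.92.

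TAGLN, or SM22 alpha, an actin cross-linking protein (ENSG00000149591, chromosome 11, 117070037 to 117075498, plus strand), showed no such rise. It stood at 238 and 229 CPM in DMSO and 246 and 231 CPM in wogonin, and the groups overlapped. The log2 fold change was 0.03 ± 0.06 (SE, 95% interval -0.09 to 0.15, edgeR adjusted p = 0.67), and its sign turned in 5 of 16 alternatives. Its 3′ end overlaps PCSK7 on the opposite strand, which rose by a log2 value of 1.08. In uniquely placed exon reads, 66.0% of its total, the TAGLN value was 0.08 (edgeR adjusted p = 0.29).

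CNN1, or calponin, which binds actin and tropomyosin in smooth muscle (ENSG00000130176, chromosome 19, 11649532 to 11661138, plus strand), was scarce and went down. It had 25 and 15 exon reads in DMSO against 8 and 7 in wogonin, or 2.12 and 1.22 against 0.75 and 0.65 CPM. The groups did not overlap. CNN1 fell by 1.25 ± 0.46 log2 units (SE, 95% interval -2.22 to -0.28, adjusted p = 0.025 by edgeR). The call rests on few reads: it was lost with DESeq2 (adjusted p = 0.19), without DMSO 1 (value -0.82, edgeR adjusted p = 0.31), without wogonin 3 (edgeR adjusted p = 0.082) and without wogonin 4 (edgeR adjusted p = 0.11).

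In 8 of the 10 genes, all but ANKRD1 and TAGLN, both treated libraries lay on 1 side of both controls, 6 of them lower. Over all genes tested 81.9% did so, 40.9% on the lower side. With 2 libraries a group the smallest p of an exact permutation test is 0.333, so each p-value above comes from the model fitted across all genes. The labels do not say whether the replicates were separate cultures. The p-values therefore describe the spread among these 4 libraries alone, and that spread may be technical.

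Compared per exon length in the deposited TPM, the order of the members differed between groups. In DMSO it ran from CYR61 (273 ± 27.9 TPM, SD, n = 2) through TAGLN (255 ± 3.07), ACTA2 (245 ± 2.56), CTGF (201 ± 45.0), AMOTL2 (168 ± 11.2), WWTR1 (160 ± 9.95), YAP1 (139 ± 0.40) and LATS2 (103 ± 1.02) to ANKRD1 (4.13 ± 1.22) and CNN1 (2.43 ± 0.89). The library values of CYR61 and TAGLN, of CTGF and AMOTL2, and of AMOTL2 and WWTR1 overlapped, so these neighbours did not differ beyond their spread. In wogonin ACTA2 stood highest (423 ± 55.8 TPM), followed by TAGLN (237 ± 19.3), WWTR1 (167 ± 0.37), CYR61 (145 ± 11.0), YAP1 (120 ± 3.40), CTGF (101 ± 10.4), AMOTL2 (83.3 ± 4.56) and LATS2 (78.6 ± 2.48), and of these neighbours only AMOTL2 and LATS2 overlapped. ANKRD1 (2.44 ± 0.79 TPM) and CNN1 (0.92 ± 0.13 TPM) remained lowest. TPM carries no TMM scaling, so fold changes and tests come from the counts, and TPM gives the levels of genes within a library or group.

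Spliced reads and intron reads gave further views of the same genes. In exon-exon reads 8 members could be tested, all but ANKRD1 and CNN1, and 3 fell (CTGF by 1.04, CYR61 by 0.83 and AMOTL2 by 0.81 log2 units) while ACTA2 rose. Intron reads, which come in part from unspliced RNA, were few. The intron counts given here are not scaled to the intron reads of each library, of which wogonin 3 had the highest share (7.96%). YAP1 had 142 and 126 in DMSO and 221 and 68 in wogonin, so in these raw counts its 2 treated libraries lay on opposite sides of the controls. ACTA2 had 25 and 38 intron reads in DMSO and 65 and 56 in wogonin, and both treated libraries were higher (log2 fold change 0.65 ± 0.32, SE, edgeR adjusted p = 0.17). For CYR61 the counts were 19 and 19 in DMSO and 19 and 31 in wogonin (log2 fold change 0.14 ± 0.44, 95% interval -0.79 to 1.06, edgeR adjusted p = 0.86).

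Of the 6 members with enough intron reads to test, none passed in edgeR, and none had an unadjusted p under 0.05 either, against 20.1% called of 10495 genes tested on intron reads (11.3% higher and 8.82% lower). At this depth the intron intervals of all 6 include the exon values. Examples are CYR61 (-0.79 to 1.06, exon value -0.76), AMOTL2 (-1.68 to 0.31) and LATS2 (-1.16 to 0.06). Wogonin 3 is the library with the high intron share, and its part in these values was not tested apart from leaving it out: without it ACTA2 rose (0.83) and YAP1 fell by 0.98 in intron reads, and without wogonin 4 AMOTL2 and LATS2 fell by 1.32 and 0.66.

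**Figure D2:**
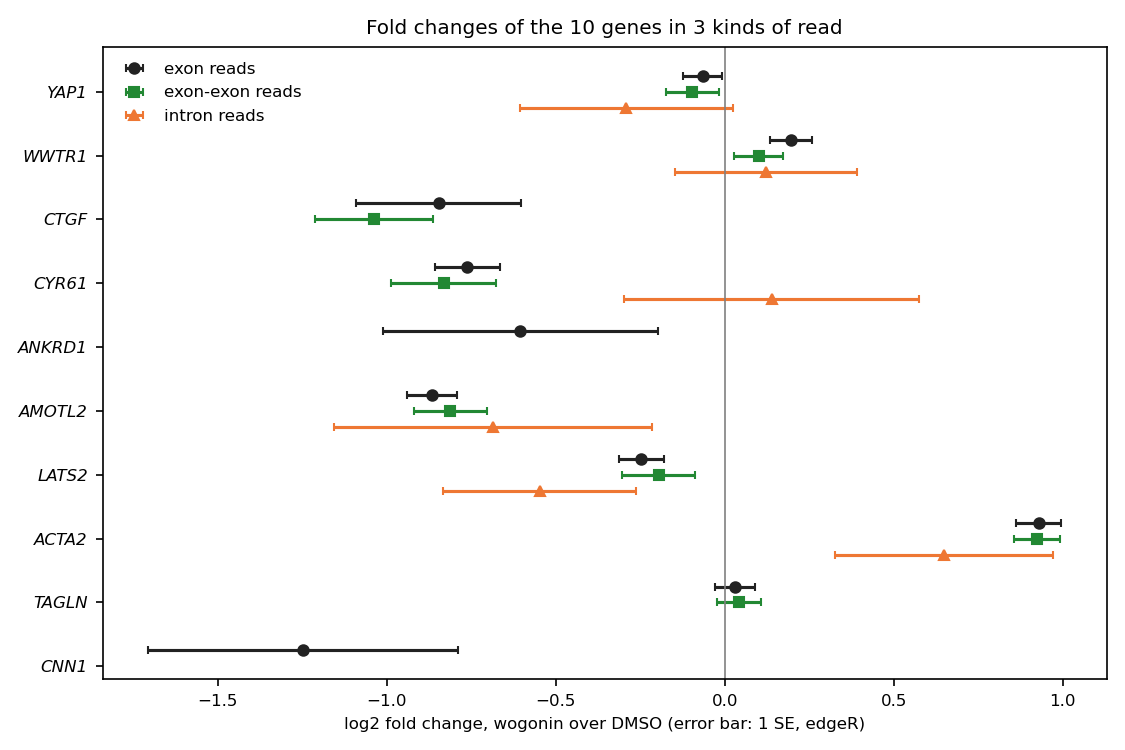
Log2 fold change of wogonin over DMSO (horizontal axis) for each of the 10 genes in exon reads (black circles), exon-exon reads (green squares) and intron reads (orange triangles), with bars of 1 SE from edgeR. Missing symbols are genes with too few reads to test, and the intron values have the widest bars, such as 0.14 ± 0.44 for CYR61 against -0.76 ± 0.10 in exon reads.

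Close relatives of the members did not move as one. Among the actins, per length, ACTB was at 4207 ± 157 TPM in DMSO (SD, n = 2) and fell by 0.31 log2 units (edgeR adjusted p = 1.2e-04), while ACTG1, the other cytoplasmic actin, did not pass (log2 fold change 0.07, edgeR adjusted p = 0.34, a sign that turned in 5 of 16 alternatives). ACTA2 made up 3.99% and 4.19% of the summed actin TPM in DMSO and 8.89% and 8.13% in wogonin, a share within each library that no scaling between libraries alters. ACTG2, the gamma actin of smooth muscle, had 20 and 15 reads in DMSO and 3 in each treated library, a ratio of 0.19 (exact 95% counting interval 0.066 to 0.46), and its fall had an edgeR adjusted p of 0.0012 (0.051 without DMSO 1). ACTC1 had no read, and ACTA1 had at most 1 read in a library.

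TAGLN2, the transgelin of non-muscle cells, fell by 0.71 ± 0.10 log2 units (SE, adjusted p = 4.8e-05 by edgeR). The calponins that are not restricted to muscle rose, CNN2 by a log2 fold change of 0.41 and CNN3 by 0.54 (edgeR adjusted p = 3.0e-05 and 4.6e-06). Per length, both were far above CNN1, at 312 ± 13.8 and 173 ± 10.9 TPM in DMSO. The relatives TAGLN2, CNN2, CNN3, LATS1 and AMOTL1 were chosen after their values were seen.

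Among the restrainers of YAP, LATS1 fell by 0.79 log2 units (edgeR adjusted p = 2.1e-07), against 0.25 for LATS2. LATS1 was the scarcer of the 2 per length, at 41.4 ± 1.80 TPM in DMSO against 103 ± 1.02. AMOT, the founding angiomotin, went from 148 and 150 exon reads in DMSO to 9 and 17 in wogonin, a fall of 3.35 ± 0.25 log2 units (SE, adjusted p = 1.0e-08 by edgeR). AMOTL1 did not pass (log2 fold change 0.09, edgeR adjusted p = 0.43), and its sign turned in 6 of 16 alternatives. Differences between relatives were not tested.

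**Figure D3:**
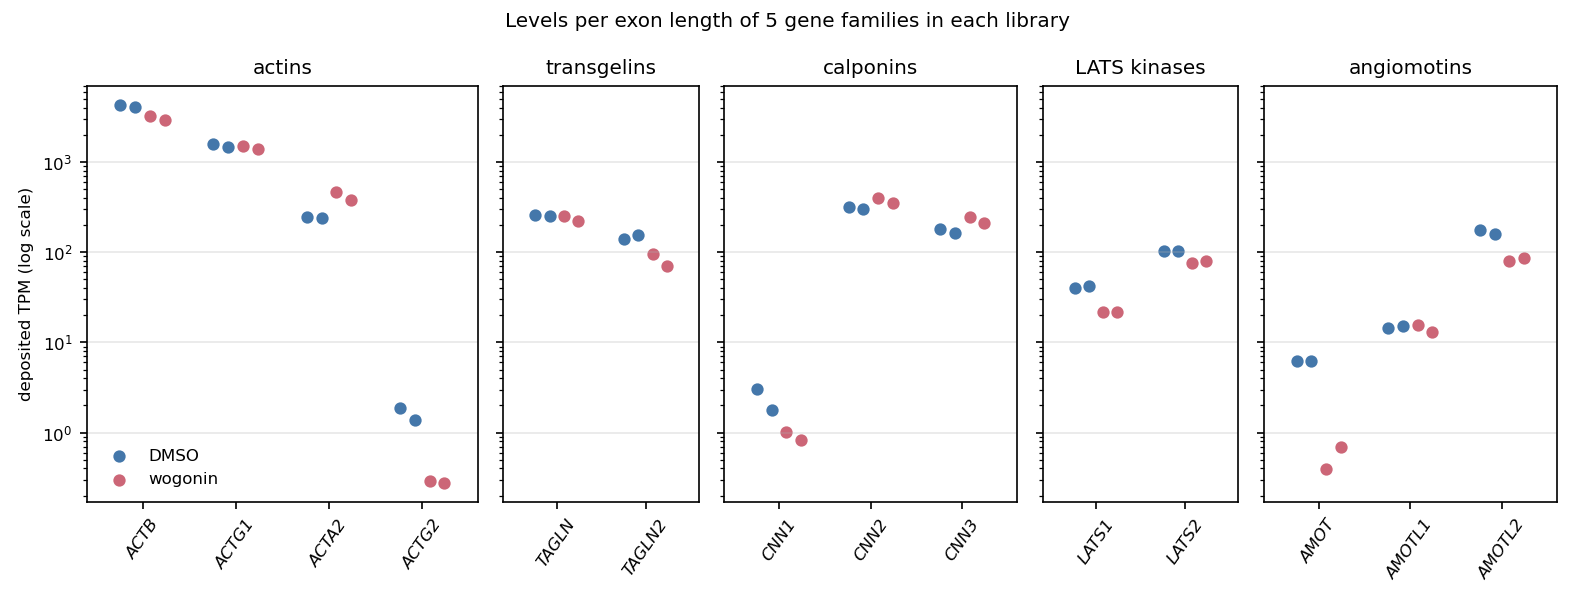
Deposited TPM (log axis) of the actins, transgelins, calponins, LATS kinases and angiomotins in the 2 DMSO libraries (blue) and the 2 wogonin libraries (red). Within each group the order per length is the same among the actins and among the angiomotins, with ACTB and AMOTL2 highest and ACTG2 and AMOT lowest. AMOT has a mean of 6.24 TPM in DMSO and AMOTL2 of 168 TPM.

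In the wider list of Hippo kinases, scaffolds and TEAD factors 26 of 27 genes were tested: 8 rose, 11 fell and 7 did not pass, which is 73.1% called, 30.8% higher and 42.3% lower, beside 63.8%, 32.3% and 31.5% of all genes tested. The median log2 fold change was -0.13. The genes with the smallest adjusted p among those that rose were the Hippo kinase STK4 (log2 fold change 0.81), the scaffold WWC1 or KIBRA (0.77), the kinase TAOK2 (0.51) and the LATS cofactor MOB1A (0.37). Those among the falls were the LIM protein AJUBA, which inhibits LATS (-1.43, and -1.26 in its uniquely placed reads, 35.9% of the total), AMOT, the adaptor SAV1 (-1.05) and the kinase MAP4K4 (-0.66). Members of the kinase cassette thus lay on both sides, STK4 and MOB1A higher and SAV1 and LATS1 lower.

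The TEAD factors, which carry YAP and TAZ to DNA, had log2 fold changes below 0. TEAD1 was the most abundant of them per length (141 TPM in DMSO) and fell by 0.29 (edgeR adjusted p = 2.0e-04), a call lost in exon-exon reads (-0.10, edgeR adjusted p = 0.33). TEAD2 fell by 0.97 ± 0.09 log2 units (SE, adjusted p = 1.6e-07 by edgeR). TEAD4 fell by 0.24 (edgeR adjusted p = 0.048), which was lost in 8 of 16 alternatives including those without DMSO 1, without DMSO 2 and without wogonin 3, the last with the highest adjusted p, 0.33. TEAD3 stood at -0.23 and did not pass (edgeR adjusted p = 0.056).

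Of 28 further described YAP targets 21 were tested, and 12 fell, 5 rose and 4 did not pass. That is 81% called, 57.1% lower and 23.8% higher, beside 63.8%, 31.5% and 32.3% of all genes tested. The median log2 fold change was -0.32. Among those that fell, AXL, NUAK2, TGM2 and WNT5A passed the filter on low counts through DMSO, the group where they were higher. The share lower rests in part on these genes. The other 7 genes had too few reads to test. With DESeq2 9 fell and 5 rose, beside 3205 lower and 3496 higher over all genes tested. In exon-exon reads 9 fell and 4 rose, beside 3155 and 3110. With library totals alone 13 fell and 4 rose, beside 4974 and 3657. AXL, a receptor tyrosine kinase, went from 59 and 57 reads to 6 and 4 and fell by 3.35 ± 0.39 log2 units (SE, adjusted p = 1.3e-06 by edgeR). The stress gene GADD45A (-1.24), the matrix gene CCDC80 (-1.57) and the survivin gene BIRC5 (-0.32, and -0.26 in its uniquely placed reads, 43.8% of the total) also fell. Those that rose included FJX1, the relative of the fly gene four-jointed (1.56), the cyclin CCND1 (0.64), the RNA-binding protein RBMS3 (0.61) and the Arf regulator ASAP1 (0.51). The list holds genes that other pathways also drive, such as CCND1, MYC and BIRC5. The part that the libraries' differences in introns and mitochondrial reads have in these counts was not tested.

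In the wider list of SRF targets and contractile genes 38 of 46 were tested, with 17 higher, 10 lower and 11 not past the threshold. That is 71.1% called, 44.7% higher and 26.3% lower, beside 63.8%, 32.3% and 31.5% of all genes tested. The median log2 fold change was 0.11. With library totals alone, and likewise with upper-quartile scaling, 13 were higher and 13 lower. Over all genes tested, 4343 were higher and 4234 lower as reported. With library totals they were 3657 and 4974, and with upper-quartile scaling 3663 and 4976. SRF itself was higher by 0.19 log2 units (edgeR adjusted p = 0.036), a call lost in 10 of 16 alternatives, including those without DMSO 1, DMSO 2 or wogonin 4 (highest adjusted p = 0.36, in exon-exon reads). Its coactivators MKL1 (-0.02, edgeR adjusted p = 0.87, a sign that turned in 4 of 16 alternatives) and MKL2 (0.10, edgeR adjusted p = 0.27) did not pass. By smallest adjusted p, the genes that rose were led by the myosin light chains MYL12A (1.02, and 0.99 in its uniquely placed reads, 52.1% of the total) and MYL12B (0.77), the adhesion protein ZYX (0.88) and the tropomyosin TPM3 (0.55). The falls included the smooth muscle protein SMTN (-1.08) and the LIM proteins PDLIM7 (-0.69) and FHL2 (-0.56), while the filamin FLNA, chosen after its value was seen, rose by 0.86.

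In a list of 9 smooth muscle markers that leaves out the members ACTA2, TAGLN and CNN1, none that was tested rose. Of these 9, 4 (MYOCD, DES, CASQ2 and PLN) had no read in any library, and MYH11 had 8 to 17 reads a library. Of the MYH11 reads, none in DMSO and 6 in each wogonin library were uniquely placed. The summed level of the 9 markers was 63.4 and 61.5 CPM in DMSO and 34.4 and 34.5 CPM in wogonin. Most of that sum and of its drop was SMTN, at 51.4 and 51.0 CPM in DMSO and 24.6 and 23.7 CPM in wogonin. Of the 4 tested, SMTN and ACTG2 fell and MYH11 and LMOD1 did not pass, and SYNPO2, too scarce to test, had 1 and 0 reads in DMSO and 5 in each treated library. In bulk RNA a change in the share of cells that express a gene and a change in RNA per cell cannot be told apart.

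**Figure D4:**
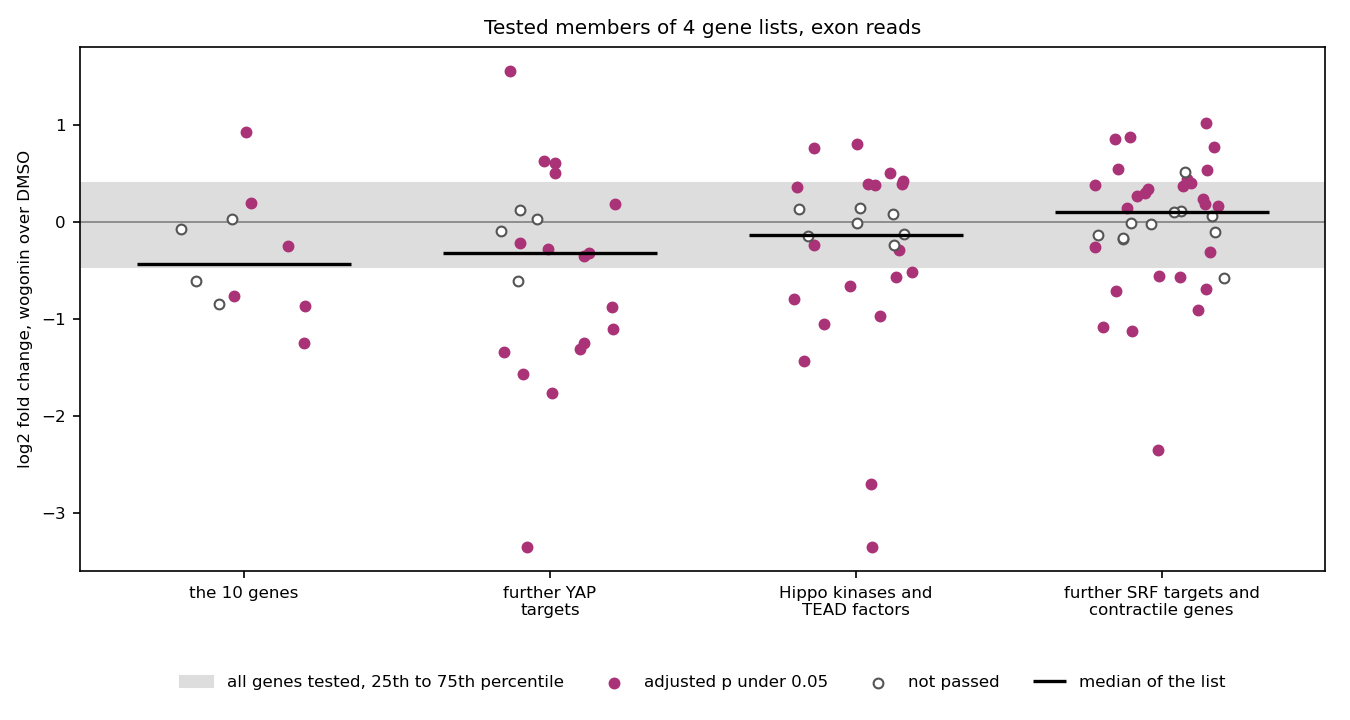
Log2 fold change of wogonin over DMSO (vertical axis) of the tested members of 4 gene lists, filled where the edgeR adjusted p is under 0.05 and open where it is not, with a bar at each list's median and a grey band from the 25th to the 75th percentile of all genes tested. Each list has genes on both sides of 0, with medians of -0.43 for the 10 genes, -0.32 for further YAP targets, -0.13 for Hippo and TEAD genes and 0.11 for SRF targets.

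Across the alternatives the members differed in how firmly their values held. CYR61, AMOTL2 and ACTA2 kept their direction and their call in all 16 alternatives. LATS2, WWTR1 and CNN1 kept their direction and lost their call in 2 of 16, 6 of 16 and 4 of 15. CTGF and ANKRD1 kept a value below 0 throughout, with CTGF past the threshold in 12 of 16 and ANKRD1 in none of 15. YAP1 and TAGLN stayed within 0.16 log2 units of 0.

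**Figure D5:**
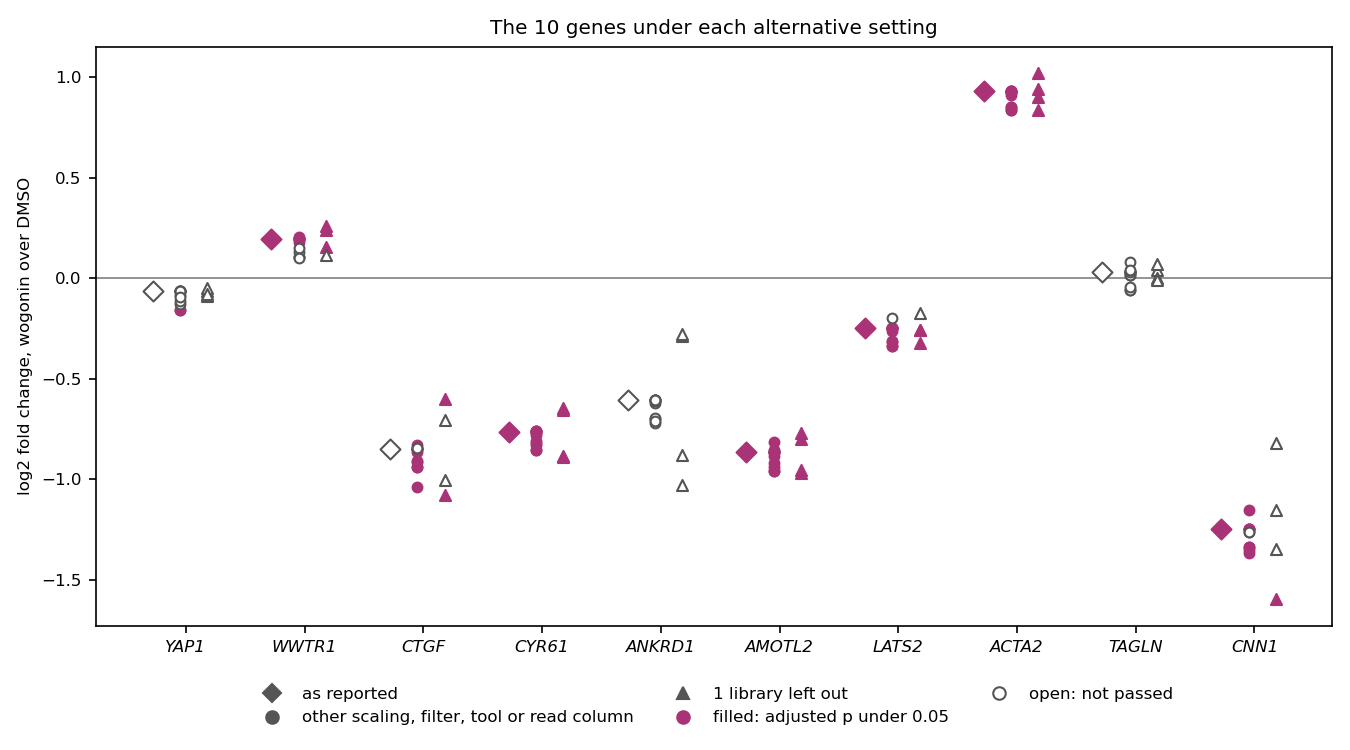
Log2 fold change (vertical axis) of each of the 10 genes as reported (diamonds), under another scaling, filter, tool or read column (circles) and with 1 library left out (triangles), filled where the adjusted p is under 0.05. ACTA2 stays between 0.84 and 1.02 and AMOTL2 between -0.97 and -0.77, while ANKRD1 ranges from -1.03 to -0.28 and is open throughout.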

How the data were processed

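The authors deposited 1 table per library with reads per gene in exons, introns and across splice junctions as counts, and TPM derived from the exon counts, per the file headers. Builds, per the submitters' processing notes, were GRCh 37 and hg 19. For the aligner, the counting program and the strand setting, no source used here gives a name.

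Total exon counts went into a robust quasi-likelihood fit of edgeR 4.0.16 (R 4.3.3) after filterByExpr and TMM, with treatment as the single term and a 2-sided test, with Benjamini-Hochberg adjustment over all 13449 genes tested and a threshold of 0.05. Of the genes that fell, CNN1, ACTG2, AMOT and the further YAP targets AXL, NUAK2, TGM2 and WNT5A passed that filter through DMSO. They reached its level in both DMSO libraries but not in both wogonin libraries. Their entry to the test thus rested on the group where they were higher. Intron counts of genes with exons had the same fit. SE is that of the fitted fold change. Alternatives were other scalings, filters and count columns, a non-robust fit, DESeq2 1.42.0, limma-voom (limma 3.58.1) and leaving out each library. Exon-exon reads were added after seeing the data. No 2 libraries were copies: chi-square per degree of freedom was 2.93 between DMSO libraries and 7.04 between wogonin libraries.

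On simulated counts for this comparison, over 13250 genes, 76.5% of 98 genes changed 1.5-fold were recovered, with 4 false calls. Of 99 genes changed 2-fold 85.9% were recovered. Far fewer genes were changed there than the 63.8% called in the data, so these rates need not hold for the calls here.

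The members and the gene lists were chosen with earlier results of these data known. Named were all 10 members, up to 4 rises and 4 falls of smallest adjusted p in each of 3 pathway lists, and the TEAD, SRF, MKL and actin genes whatever their p. Other genes were chosen after their values were seen. Some genes that this rule names are not reported here. Promoter windows came from RefSeq, cut to the 250 bases before the start.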

Additional observations from a re-analysis of the deposited data

How the results depend on the processing

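Of 158 values of the 10 genes under alternatives, 127 kept direction and side of the threshold, 12 lost and 14 gained the call, and 5, all of TAGLN, changed sign. For 33 other named genes 492 of 526 values kept both. The count of members higher was 2 as reported and 1 with library totals alone, upper-quartile scaling, total gene reads, unique gene reads and exon-exon reads, WWTR1 being the gene lost, and 1 to 2 with a library left out. The count lower was 4 as reported, 6 with library totals alone and with upper-quartile scaling, 5 with no filter, limma-voom, unique exon, total gene and unique gene reads and the non-robust fit, 3 in exon-exon reads, and 2 to 5 with a library left out, lowest without wogonin 3. TAGLN had values of -0.061 with library totals alone and with upper-quartile scaling, -0.045 in total gene reads, and -0.0087 to 0.070 with a library left out. MKL1 had 0.14 in total and in unique gene reads and -0.098 to 0.038 with a library left out. ACTG1 had -0.025 under both scalings, -0.0082 in total and -0.0017 in unique gene reads, and -0.020 to 0.14 with a library left out. AMOTL1 had -0.0014 with library totals alone, -0.0015 with upper-quartile scaling, -0.026 in unique exon reads, -0.097 in unique gene reads, -0.19 in exon-exon reads, and -0.0022 to 0.18 with a library left out. The cause of these changes was not tested.

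In intron reads 1187 genes were higher and 926 lower. With a library left out these counts ran from 386 to 2046 and from 267 to 1962, lowest without DMSO 1 (386 and 267) and DMSO 2 (440 and 290) and highest without wogonin 3 (1895 and 1677) and wogonin 4 (2046 and 1962). The members called in intron reads ran from 0 to 1 higher and from 0 to 2 lower. Intron values with a library left out ran from -0.98 to 0.094 for YAP1, from -0.21 to 0.33 for WWTR1 and from -0.62 to 0.71 for CYR61. ANKRD1, CNN1 and the intron reads of all members are limited by depth. No paired analysis was possible because the groups share no replicate number.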
